A study of Macaca fascicularis and Mus musculus with 42 samples.

Results

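Primordial germ cell-like cells (PGCLC) are cultured counterparts of the cells that found the germ line, and they were induced here from embryonic stem cells of Macaca fascicularis, the cynomolgus monkey, in 1 of 2 media. The comparison described is that of aRB27 medium with GK15 medium on days 2, 4 and 6 of induction. Its 11 libraries were chosen by name from the 42 of the series, of which 38 came from monkey and 33 from reporter lines. Of the 11, 7 came from aRB27 (2 of day 2, 2 of day 4 and 3 of day 6) and 4 from GK15 (1 of day 2, 1 of day 4 and 2 of day 6). From the protocols, GK15 is read as GMEM with 15% KSR, a serum replacement, and aRB27 as Advanced RPMI1640 with the B27 supplement. Aggregates in both media received BMP4 at 200 ng/ml, SCF at 100 ng/ml, EGF at 50 ng/ml, LIF at 1000 U/ml and the ROCK inhibitor Y27632 at 10 µM until harvest. All 11 libraries are labelled as line 656BTAG42, which carries tdTomato for PRDM1 (Blimp1) and EGFP for TFAP2C, and as cells sorted as BTAG positive, that is, positive for both reporters. By these labels a single reporter line stands for the species. They say neither whether it is 1 clone nor whether libraries sharing a group were grown separately. Every p-value therefore measures the spread between these samples, which may be technical.

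A culture medium supplies fuels that a cell can take up. Cells burn glucose through glycolysis and the pyruvate dehydrogenase complex, and fatty acids through carnitine transfer and beta oxidation in mitochondria. Receptors of the PPAR family switch on many genes of fat use, and the immediate early genes are switched on within minutes of a growth factor or serum signal. PGCLC of primates are marked by SOX17, PRDM1, TFAP2C and NANOS3, keep POU5F1 and NANOG, and lose most of their SOX2.

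Libraries were made from 1 ng of total RNA and sequenced at the 3′ ends of transcripts. Levels are in RPM, reads scaled to a fixed library total. The libraries held 1.51 to 6 M reads, with GK15 day 4 library 1 the deepest and the others at up to 2.4 M, so that 1 read stood for 0.167 to 0.661 RPM. The double-positive label was checked against the sorted genes and other germ cell markers. Across the 11 libraries PRDM1 was 120 to 318 RPM, TFAP2C 386 to 717 RPM, SOX17 597 to 1190 RPM and NANOS3 7.44 to 60.3 RPM. Another 4 libraries carry the same labels of gate, medium and day and are not in the comparison. In 3 of these, GK15 libraries 2 of days 2, 4 and 6, PRDM1 was at 4.90, 0 and 0.50 RPM, which goes against their gate. The fourth, aRB27 day 6 library 2, is labelled as the other reporter line, 656BTAG63, and had PRDM1 at 153 RPM. The names of the libraries are also open to doubt. As named, 1 embryonic stem cell library had PRDM1 at 253 RPM, and 2 GK15 libraries of another gate had 194 and 145 RPM. If the reporter-line names belonged to the libraries in alphabetical order, these would be GK15 BTAG positive libraries of days 2, 4 and 6. The 3 low libraries would be embryonic stem cells or of that other gate. In all, 9 of the 33 would fall in another group, and which reading is right was not tested. Of the 11 used here, in alphabetical order 0 would change medium or day and 5 would change name. Another 2 statements of line would change: aRB27 day 6 library 3 and GK15 day 6 library 1 would be of the other reporter line.

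The media differed in few genes. Of 9553 genes tested with day as a factor (limma on log2(RPM + 1), keeping genes that reached 10 RPM in 2 or more of the 11 libraries), 39 or 0.408% were called, that is, past a Benjamini-Hochberg adjusted p of 0.05 with a log2 difference of at least 1. Of these, 36 (0.377% of the genes tested) were lower in aRB27 and 3 (0.0314%) were higher. The log2 differences are aRB27 minus GK15 throughout, are given ± SE, and understate the change of genes near 1 RPM. In 35 of the 36 lower genes, every aRB27 library was below every GK15 library of the same day, which held for 4.26% of all genes tested. All 3 of the higher genes had no overlap in the other direction, against 1.3% of all genes. Across all genes the median difference was -0.08, with 63.7% under 0, and 1032 (10.8%) had an unadjusted p under 0.05. Libraries of the same day and medium correlated at 0.911 to 0.968 (6 pairs) and those of the same day and other medium at 0.908 to 0.964 (10 pairs), as a description. The count depended on single libraries. It was 0 without GK15 day 4 library 1, 0 without GK15 day 6 library 1, 1 without GK15 day 6 library 3 and 63 without GK15 day 2 library 1, and among the aRB27 libraries it was 13 without day 4 library 2. Under each of these 11 omissions none of the 39 genes changed direction. It was also 0 without the 2 libraries whose line depends on the reading of the names, and 0 within the 9 libraries of title code MS162, while code MS134 has 1 library of each medium, both of day 6, and gives no test. The title codes are part of the names in doubt: in alphabetical order aRB27 day 6 library 3 would have code MS134. With the 4 further libraries as labelled, 2 genes were called, PTRF and TXNIP, but the PRDM1 level of the GK15 ones goes against their gate.

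Several genes of fuel use were lower in aRB27. PDK4 (102119067) encodes a kinase that switches off pyruvate dehydrogenase and so limits the entry of glucose carbon into mitochondria. In GK15 it was 92.5 RPM on day 2, 151 RPM on day 4 and 387 and 171 RPM on day 6. The aRB27 libraries had 64.3 and 35.6 RPM on day 2, 70.3 and 37.99 RPM on day 4 and 75.8, 60.97 and 44.98 RPM on day 6. All 7 aRB27 libraries lay below all 4 GK15 libraries, with a log2 difference of -1.64 ± 0.28 (limma adjusted p = 0.0227). Without GK15 day 4 library 1 the difference of PDK4 was -1.69 (limma adjusted p = 0.131) and without GK15 day 6 library 1 it was -1.33 (limma adjusted p = 0.0847). With the 4 further libraries as labelled, of which the GK15 ones go against their gate, it was -0.81 (limma adjusted p = 0.491). TXNIP (102138546), which restrains glucose uptake and binds thioredoxin, was 18.6 RPM on day 2, 33 RPM on day 4 and 17.5 and 28.3 RPM on day 6 in GK15. Its aRB27 levels were 9.93 and 6.34 RPM on day 2, 2.3 and 3.74 RPM on day 4 and 2.96, 3.52 and 4.63 RPM on day 6. Again no aRB27 library reached the lowest GK15 library, and the log2 difference was -2.21 ± 0.33 (limma adjusted p = 0.0159). HK2 (102121518), a hexokinase of the first step of glycolysis, ranged from 22.9 to 75 RPM in GK15 and from 2.65 to 21.2 RPM in aRB27, a log2 difference of -1.8 ± 0.36 (limma adjusted p = 0.0449).

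**Figure D1:**
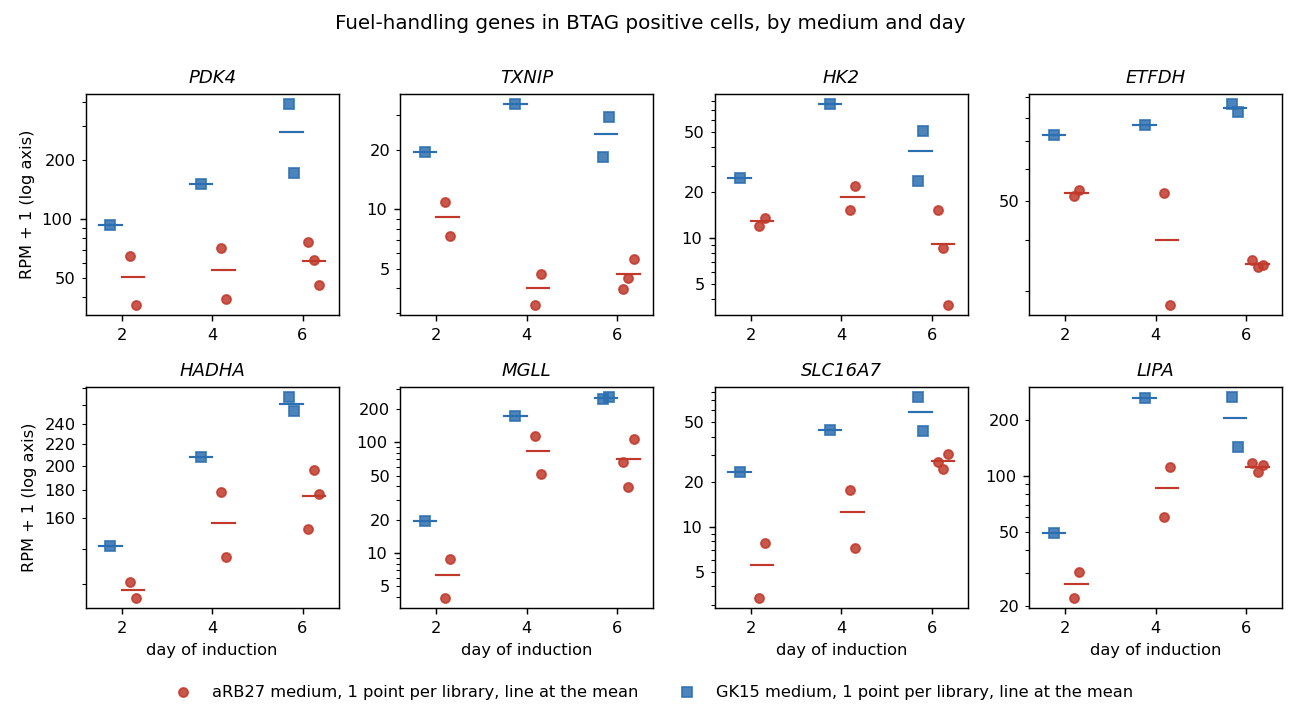
Levels of 8 genes of fuel use in the 11 libraries by day of induction (horizontal axis) as RPM + 1 on a logarithmic axis (vertical), with 1 point per library (squares GK15, circles aRB27) and a line at the arithmetic mean. In each panel the aRB27 points of a day lie below the GK15 points of that day.

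These genes belong to lists chosen with earlier results of these data known, and the lists are described by counts. Of the 18 genes of the fatty acid oxidation and PPAR list with an entry, 16 were tested: 3 were called, all lower in aRB27 (TXNIP and PDK4 among them), and 0 were higher, against 0.377% and 0.0314% of all genes. TXNIP counts here as the list was drawn up, though the role given above is in glucose uptake. A further 7 genes of the list had an unadjusted p under 0.05 on the lower side (10 in all, against 8.15% of all genes). The difference was under 0 in 14 of 16, against 63.7% of all genes, and the median was -0.48 against -0.08 for all genes tested. ETFDH, which passes electrons from fatty acid oxidation to the respiratory chain, ranged from 71.6 to 85.4 RPM in the GK15 libraries and from 26.8 to 52.2 RPM in the aRB27 libraries, without overlap. Its log2 difference of -0.99 ± 0.19 (limma adjusted p = 0.0323) passed the adjusted p but fell just short of the fold. CPT1A, the gate of fatty acid entry into mitochondria, had medians of 43.8 RPM in GK15 and 19.0 RPM in aRB27 with overlapping libraries (log2 -1.1, 95% interval -2.11 to -0.1, limma adjusted p = 0.41). SLC25A20, the carnitine carrier, had medians of 14.1 and 6.33 RPM and also overlapped (log2 -1.16, limma adjusted p = 0.447). HADHA, a subunit of the mitochondrial trifunctional protein, had a small difference without overlap (log2 -0.46, 95% interval -0.73 to -0.19, limma adjusted p = 0.142). CPT2, which acts in the same pathway as CPT1A, had a difference of -0.13. The summed level of the list was 2560 to 2860 RPM in the GK15 libraries and 1800 to 2270 RPM in the aRB27 libraries, with no overlap, and FABP5, a fatty acid binding protein that did not pass the test, made up medians of 1010 and 932 RPM of it.

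Neighbouring parts of metabolism gave other genes. MGLL (102119084), the lipase that splits monoglycerides, was 18.6 RPM on day 2, 173 RPM on day 4 and 247 and 254 RPM on day 6 in GK15 and 2.92 and 7.8 RPM on day 2, 113 and 51.1 RPM on day 4 and 65.6, 38.7 and 107 RPM on day 6 in aRB27. In both media the level was higher on days 4 and 6 than on day 2, and within each day aRB27 was lower (log2 difference -1.68 ± 0.3 (limma adjusted p = 0.0243)). LIPA, the lysosomal acid lipase, had a log2 difference of -1.06, and SLC16A7, a transporter of pyruvate, lactate and ketone bodies, one of -1.59 (limma adjusted p = 0.0489 and 0.0436). The call of LIPA was kept in 1 of the 11 omissions of a library and that of SLC16A7 in 4 of 11. Such dependence was common among the 39 calls, which were kept in 1 to 9 of the 11 omissions and, for 18 of them, in 5 or fewer. Among these 18 were GMPR (kept in 1), ACOT7 (2), FAM129A, NR4A1, FDX1 and GREB1 (3 each), EGR3 and HAPLN1 (4 each) and HK2 (5). HK2 was the only call among 27 tested genes of glycolysis and hypoxia, against 0.408% of all genes, and their median was -0.12. At an unadjusted p under 0.05, 4 were lower and 0 higher, against 8.15% and 2.65% of all genes. Among the 27 are GAPDH (log2 -0.07, 95% interval -0.35 to 0.21), PGK1 (log2 -0.1, 95% interval -0.47 to 0.27) and the glucose transporter SLC2A1 (log2 -0.6, 95% interval -1.13 to -0.06), none of which passed the test. Cholesterol synthesis (22 tested, median 0.13), fatty acid synthesis (14, median 0.13), the amino acid response (27, median 0.07), the oxidative stress genes (18, median 0.04) and the respiratory chain (15, median -0.09) had 0 calls each in limma, with 1, 3, 6, 1 and 0 genes at an unadjusted p under 0.05. Of all genes, 0.408% were called, so 0 calls in lists this short is near that share. An unadjusted p under 0.05 was found in 10.8% of all genes. In the order given, 2, 4, 9, 8 and 10 genes of the lists were under 0, and 63.7% of all genes were. Most cholesterol synthesis genes were thus slightly higher in aRB27, with medians of 0.47, 0.19 and -0.08 on days 2, 4 and 6.

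Immediate early genes were also among those called lower in aRB27. Of 17 tested, 3 were called (EGR1, EGR3 and NR4A1), all lower, against 0.377% of all genes. Including these, 10 had an unadjusted p under 0.05 on the lower side (8.15% of all genes). The difference was under 0 in 13 of the 17, against 63.7% of all genes, and the median was -0.81 against -0.08. In 8 of the 17 the aRB27 libraries were below the GK15 libraries on every day, against 4.26% of all genes. EGR1 (102128326), a zinc finger transcription factor induced by ERK signalling, was 569 RPM on day 2, 795 RPM on day 4 and 436 and 509 RPM on day 6 in GK15. The aRB27 levels were 246 and 281 RPM on day 2, 187 and 283 RPM on day 4 and 252, 201 and 105 RPM on day 6. The highest aRB27 library thus stayed below the lowest GK15 library, and the log2 difference was -1.44 ± 0.21 (limma adjusted p = 0.0159). EGR3 (102131952), a relative of EGR1, was 247 RPM on day 2, 415 RPM on day 4 and 112 and 206 RPM on day 6 in GK15. In aRB27 it was 21.6 and 84.8 RPM on day 2, 43.8 and 119.6 RPM on day 4 and 83.8, 72.1 and 32.4 RPM on day 6. The ranges of the media touch for EGR3, since the highest aRB27 library of day 4 exceeds the lowest GK15 library of day 6, but libraries of the same day did not overlap (log2 difference -1.96 ± 0.39 (limma adjusted p = 0.0451)). NR4A1 (102146285), an orphan nuclear receptor of the same early response, ranged from 20.5 to 50 RPM in GK15 and from 6.43 to 19.5 RPM in aRB27 (log2 difference -1.51 ± 0.3 (limma adjusted p = 0.0456)).

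EGR2, with a log2 difference of -1.71 (95% interval -2.6 to -0.82), was lower without overlap but did not pass the adjusted test (limma adjusted p = 0.091). FOS, a subunit of AP-1, ranged from 77.8 to 461 RPM in the GK15 libraries and from 15.9 to 189 RPM in the aRB27 libraries, with overlap on day 6 (log2 -1.41, 95% interval -2.49 to -0.33, limma adjusted p = 0.294). Other members gave no such difference: MYC was at 0.43 (95% interval -0.32 to 1.18), JUND at 0.22 (95% interval -0.21 to 0.64) and SRF, the factor that drives many of these genes, at -0.07 (95% interval -0.4 to 0.27). The summed level of the list was 1440 to 2790 RPM in the GK15 libraries and 552 to 1200 RPM in aRB27. Within aRB27 the lowest sum was that of day 6 library 4. This library also had the fewest reads of the 11, 1.51 M, and its part in the result was not tested. Without it, 34 genes were called over the 3 days. The FGF and ERK feedback genes are read out from the same growth factor pathway. They had 0 calls among 17 tested, against 0.408% of all genes, and a median of -0.06. At an unadjusted p under 0.05, 3 were higher and 3 lower, against 2.65% and 8.15% of all genes. The list thus held differences in both directions, and a difference in the pathway was not tested.

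**Figure D2:**
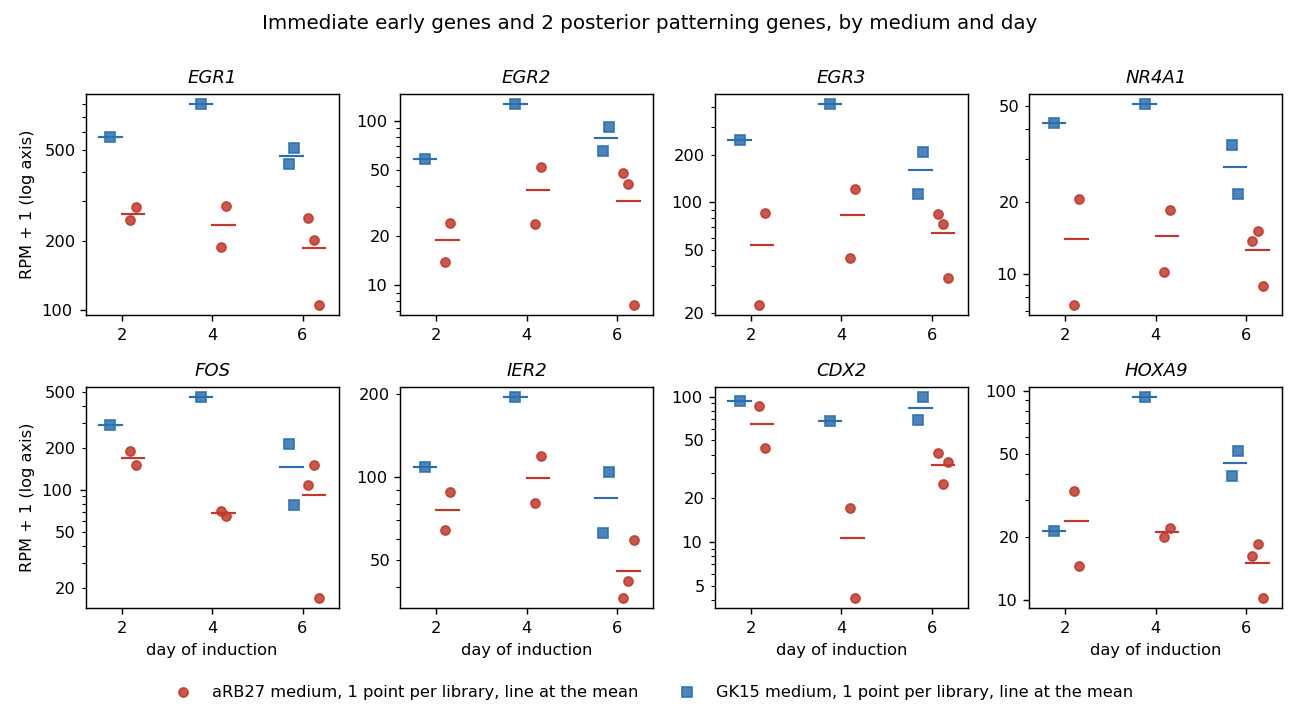
Levels of 6 immediate early genes and of CDX2 and HOXA9 in the 11 libraries by day of induction (horizontal axis) as RPM + 1 on a logarithmic axis (vertical), 1 point per library with a line at the mean. EGR1, EGR2, EGR3, NR4A1 and IER2 are lower in aRB27 (circles) than in GK15 (squares) on each day, and FOS overlaps on day 6.

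**Figure D3:**
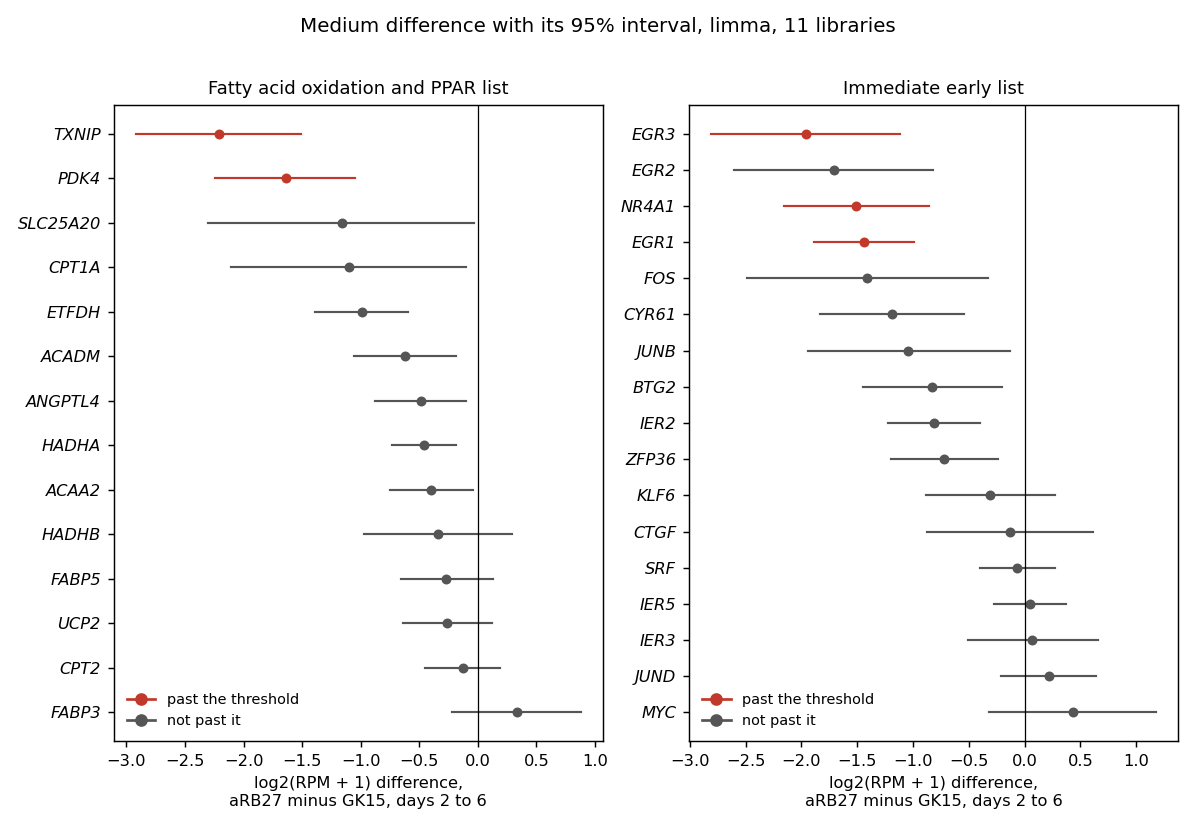
Medium difference of 14 of the 16 tested members of the fatty acid oxidation and PPAR list (left) and of the immediate early list (right, 17 genes), as log2(RPM + 1) in aRB27 minus GK15 (horizontal axis) with its 95% interval from limma. Red marks called genes, 2 on the left and 3 on the right, and in each panel 13 of the points lie left of 0.

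Several of the largest decreases were outside both lists. HAPLN1 (102124347), a link protein that ties hyaluronan to proteoglycans, was 3.25 RPM on day 2, 56.7 RPM on day 4 and 44.97 and 44.6 RPM on day 6 in GK15. Levels in aRB27 were 2.92 and 1.46 RPM on day 2, 1.15 and 0.62 RPM on day 4 and 4.65, 7.62 and 1.32 RPM on day 6. The media lay within 2 RPM of each other on day 2 and far apart on days 4 and 6 (log2 difference over the 3 days -2.96 ± 0.57 (limma adjusted p = 0.0404)). PTRF (101925903), now called CAVIN1, the coat protein of caveolae, was 5.58 RPM on day 2, 27.7 RPM on day 4 and 36.2 and 39.2 RPM on day 6 in GK15. In aRB27 it was 0.58 and 0.97 RPM on day 2, 3.45 and 0.62 RPM on day 4 and 3.81, 2.35 and 4.63 RPM on day 6. It was lower on each of the 3 days and below 5 RPM in every aRB27 library (log2 difference -2.87 ± 0.38 (limma adjusted p = 0.015)). PDZK1 (102118258), a scaffold for membrane transporters and the scavenger receptor SCARB1, was 37.7 RPM on day 2, 335 RPM on day 4 and 211 and 163 RPM on day 6 in GK15 and 29.8 and 28.3 RPM on day 2, 69.1 and 37.4 RPM on day 4 and 33.9, 31.1 and 24.5 RPM on day 6 in aRB27. Its levels on day 2 lay within 10 RPM of each other, and on days 4 and 6 the aRB27 libraries were lower (log2 difference -2.04 ± 0.32 (limma adjusted p = 0.0181)). TMPRSS2 (102137447), a membrane serine protease, was at 174 RPM on day 2 and 9.58 and 15.7 RPM on day 6 in GK15. In aRB27 it was at 82.97 and 114 RPM on day 2 and at 0 to 1.69 RPM on day 6, so that levels were lower on the later day in both media and lower in aRB27 on each day (log2 difference -2.33 ± 0.37 (limma adjusted p = 0.0181)).

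Further calls on the lower side included 5 LOC entries, at -2.79 to -1.12, and 17 named genes. Some of the 17 are given here beyond the rule for named genes, and they ranged from -1.61 (GREB1, an oestrogen-responsive gene) to -1.01 (C2H3orf52). GREB1 was the 1 lower call whose libraries overlapped on a day, with 13.9 RPM on day 2 in GK15 against 10.5 and 14.6 RPM in aRB27. Signalling genes among them were FZD1, a WNT receptor (-1.41), WWTR1, the TAZ coactivator of the Hippo pathway (-1.33), RHOB, a small GTPase (-1.49), HES6, a basic helix-loop-helix repressor (-1.32), and CRHBP, the secreted binding protein of corticotropin-releasing hormone (-1.3). CRHBP was the most abundant of these late in the time course, at 27.4 RPM on day 2, 381 RPM on day 4 and 557 and 591 RPM on day 6 in GK15 and 9.35 and 25.3 RPM on day 2, 215 and 148 RPM on day 4 and 193, 139 and 204 RPM on day 6 in aRB27. Its level was higher on days 4 and 6 than on day 2 in both media and was lower in aRB27 on each day. Enzymes among them were PDE5A, which degrades cyclic GMP (-1.15), GMPR, a GMP reductase (-1.1), MACROD1, an ADP-ribose hydrolase (-1.09), and FDX1, the mitochondrial ferredoxin (-1.27).

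Only 3 genes were called higher in aRB27. FAM129A (102130906), now NIBAN1, a stress-responsive regulator of translation, was 1.39 RPM on day 2, 2.83 RPM on day 4 and 2.5 and 1.81 RPM on day 6 in GK15. The aRB27 libraries gave 2.92 and 5.36 RPM on day 2, 5.76 and 14.95 RPM on day 4 and 15.7, 16.4 and 24.5 RPM on day 6. The 7 aRB27 libraries lay above all 4 GK15 libraries, the lowest by less than the RPM of 1 read, with a log2 difference of 1.91 ± 0.38 (limma adjusted p = 0.0436). ACOT7 (101866731), an acyl-CoA thioesterase that splits fatty acyl-CoA, was 27.4 RPM on day 2, 11 RPM on day 4 and 6.66 and 6.03 RPM on day 6 in GK15 and 39.2 and 30.2 RPM on day 2, 21.3 and 24.9 RPM on day 4 and 24.1, 21.7 and 19.8 RPM on day 6 in aRB27. Levels were lower on day 6 than on day 2 in both media, with the widest gap on day 6 (log2 difference 1.12 ± 0.23 (limma adjusted p = 0.0485)). EPHB3 (102115703), a receptor for ephrin-B ligands, ranged from 12.1 to 47 RPM in GK15 and from 38.4 to 114 RPM in aRB27 (log2 difference 1.1 ± 0.18 (limma adjusted p = 0.0225)). The balance of the directions differed between settings. Of the calls, 3 of 39 (7.69%) were higher in aRB27 here, against 8 of 32 (25%) with quantile normalization, 3 of 25 (12%) with median-of-ratios scaling, and on recovered reads 4 of 44 (9.09%) with edgeR and 29 of 103 (28.2%) with DESeq2.

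Among the germ cell genes themselves, none of 18 tested was called in limma, against 0.408% of all genes, and the median was 0.09. In each direction 2 had an unadjusted p under 0.05, against 2.65% of all genes higher and 8.15% lower. On every day the media did not overlap for 2 of the 18 that were higher in aRB27 and 2 that were lower, SOX17 among the latter, against 1.3% and 4.26% of all genes. SOX17 (101925698), the first factor of the primate germ line, was 1190 RPM on day 2, 1037 RPM on day 4 and 831 and 1062 RPM on day 6 in GK15 and 1110 and 1132 RPM on day 2, 859.7 and 949.7 RPM on day 4 and 626, 597 and 714 RPM on day 6 in aRB27. The aRB27 libraries were below those of GK15 on each day, but by little (log2 -0.33, 95% interval -0.59 to -0.07, limma adjusted p = 0.314). PRDM1 (102127621), the repressor of somatic genes that carries the tdTomato reporter, ranged from 120 to 213 RPM in the GK15 libraries and from 138 to 318 RPM in the aRB27 libraries (log2 0.23, 95% interval -0.02 to 0.48). TFAP2C (102127991), which carries the EGFP reporter, was 560 to 717 RPM and 386 to 705 RPM (log2 -0.29, 95% interval -0.6 to 0.03). Cells were sorted on these 2 reporters, so their levels are bound by the gate. NANOS3 (102133760), which binds RNA and keeps early germ cells alive, was 7.44 RPM on day 2, 23 RPM on day 4 and 49.97 and 60.3 RPM on day 6 in GK15 and 29.2 and 12.7 RPM on day 2, 23.6 and 26.2 RPM on day 4 and 36.8, 35.8 and 44.98 RPM on day 6 in aRB27. It was highest on day 6 in both media and overlapped between them (log2 0.13, 95% interval -0.47 to 0.73). KIT, the receptor of SCF, was at -0.5 (95% interval -1.25 to 0.26), KLF4 at 1.31 (95% interval 0.32 to 2.3) and TCL1B at 1.17 (95% interval 0.43 to 1.91), none past the adjusted test.

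Of the pluripotency genes, POU5F1 ranged from 1820 to 3380 RPM in GK15 and from 1220 to 3950 RPM in aRB27 (log2 0.05, 95% interval -0.35 to 0.46). NANOG was 378 to 643 and 247 to 620 RPM (log2 -0.07, 95% interval -0.45 to 0.3). SOX2 was the most variable of these: it was 39.5 RPM on day 2, 10.7 RPM on day 4 and 1.67 and 0.6 RPM on day 6 in GK15 and 2.92 and 22.9 RPM on day 2, 9.79 and 33.6 RPM on day 4 and 8.89, 12.3 and 13.2 RPM on day 6 in aRB27. It was lower in aRB27 on day 2 and higher on day 6, where the 3 aRB27 libraries exceeded both GK15 libraries (day 2 -2.07 ± 0.94, day 6 2.58 ± 0.7), and neither daily difference passed the test. In all, 0 of 10 tested genes of this list were called, against 0.408% of all genes, and the median was 0.05. The p-values above do not show that the media act alike on these genes. The intervals of SOX17, PRDM1, TFAP2C, NANOS3, POU5F1 and NANOG lie within a log2 difference of 1 either way, and those of SOX2, KLF4, TCL1B and KIT reach past it.

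**Figure D4:**
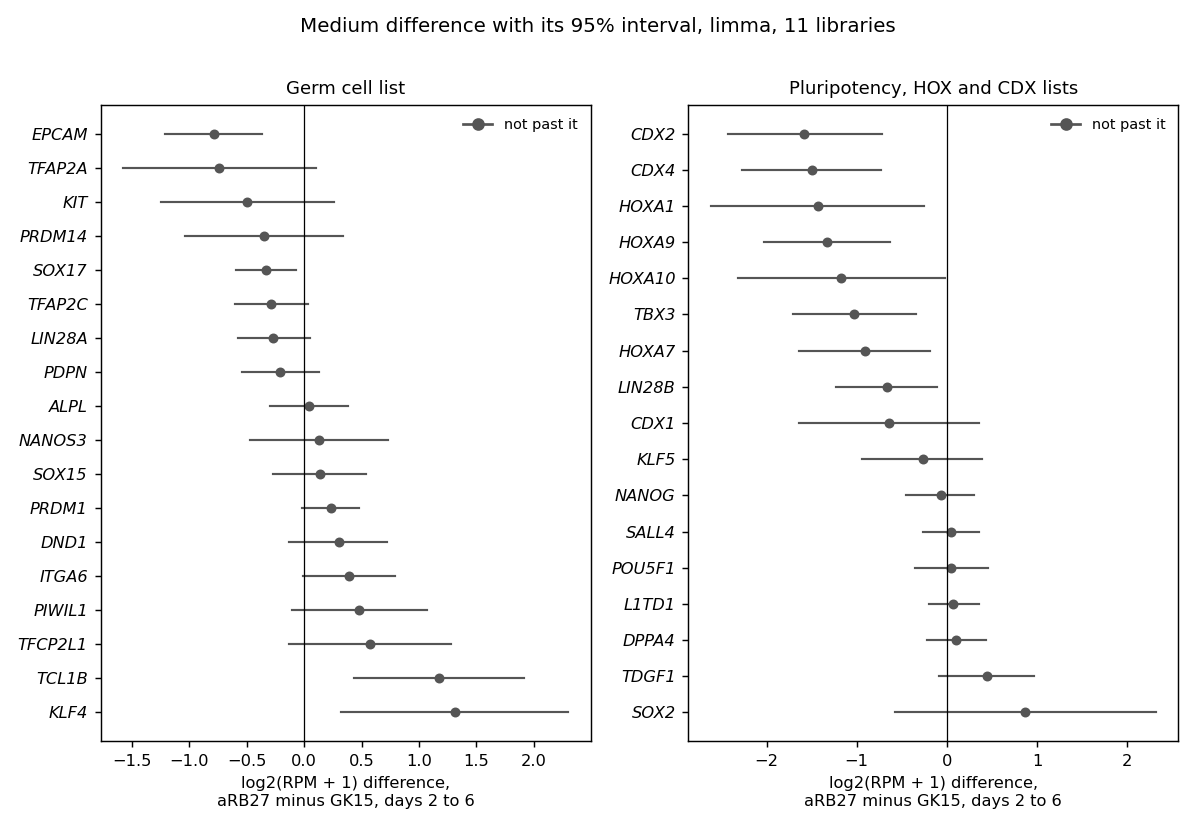
Medium difference of the 18 tested germ cell genes (left) and of the 10 pluripotency and 7 HOX and CDX genes (right), as log2(RPM + 1) in aRB27 minus GK15 (horizontal axis) with its 95% interval from limma. No gene is past the threshold, and all 7 HOX and CDX points lie left of 0.

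HOX and CDX genes, which give cells their position along the body axis, all had differences under 0. Of the 28 with an entry, 19 were under 5 RPM in all 11 libraries and 7 were tested. Of these, 0 were called in limma and 6 had an unadjusted p under 0.05, all lower, against 8.15% of all genes. The median was -1.33, and of all genes 63.7% were under 0. CDX2, a caudal factor also used in trophoblast and gut, was 92.5 RPM on day 2, 66.8 RPM on day 4 and 67.9 and 98.3 RPM on day 6 in GK15 and 85.3 and 43.4 RPM on day 2, 16.1 and 3.11 RPM on day 4 and 39.8, 24.04 and 34.4 RPM on day 6 in aRB27. The aRB27 libraries were below GK15 on every day, with the smallest gap on day 2 (log2 -1.58, 95% interval -2.43 to -0.72, limma adjusted p = 0.11). CDX4 also had no overlap on any day (log2 -1.5, 95% interval -2.27 to -0.73, limma adjusted p = 0.091). HOXA9 was 20.5 RPM on day 2, 92.3 RPM on day 4 and 38.3 and 50.6 RPM on day 6 in GK15 and 32.1 and 13.7 RPM on day 2, 19 and 21.2 RPM on day 4 and 15.2, 17.6 and 9.26 RPM on day 6 in aRB27. It overlapped on day 2 and not on days 4 and 6 (log2 -1.33, 95% interval -2.03 to -0.63, limma adjusted p = 0.0993).

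Levels of other cell types' markers were compared between the media, since a sorted population can hold other cells. None of the 6 marker lists had a call, against 0.408% of all genes. At an unadjusted p under 0.05, 4 of 11 tested primitive streak and mesoderm genes were lower and 0 higher. Lower and higher were 2 and 1 of 9 amnion and trophoblast genes and 2 and 0 of 8 endoderm genes. For primed epiblast and neural genes these were 1 and 1 of 14, for mesenchyme and fibroblast 1 and 2 of 16. For endothelium and blood they were 1 and 0 of 5, and for all genes 8.15% and 2.65%. Amnion and trophoblast markers summed to 846 to 1160 RPM in the GK15 libraries and 659 to 1070 RPM in aRB27, with 11 of 21 under 5 RPM in all libraries and CGA, ELF5 and CCR7 at 0. The endoderm list summed to 479 to 607 RPM and 458 to 1070 RPM, with AFP, TTR, APOA2, APOB, HNF4A and SOX7 below 5 RPM throughout. The highest endoderm sum was that of aRB27 day 2 library 1, which stood apart from the other 10 libraries, at 458 to 653 RPM. It had FOXA2 at 42.07 RPM and GATA6 at 39.73 RPM, both transcription factors of endoderm, against 14.6 and 3.9 RPM in the other aRB27 library of day 2 and 6.97 and 7.44 RPM in GK15. Without it, 49 genes were called over the 3 days. Primitive streak and mesoderm genes summed to 879 to 1340 RPM and 679 to 1050 RPM, led by T, with medians of 773 and 514 RPM. For primed epiblast and neural genes the sums were 673 to 1410 RPM and 663 to 1590 RPM, for mesenchyme and fibroblast genes 2130 to 4290 RPM and 2390 to 6120 RPM, led by VIM, and for endothelium and blood 189 to 322 RPM and 139 to 249 RPM. Every one of these ranges overlapped with the days pooled. Within each day, however, the amnion and trophoblast sum was lower in every aRB27 library. On day 4 it was 659 and 692 against 846 RPM, and on day 6 777, 743 and 665 against 900 and 908 RPM. The sums of primitive streak and mesoderm and of endothelium and blood were lower in aRB27 without overlap on days 4 and 6, but not on day 2. The endoderm sum was higher in aRB27 on days 2 and 4. HBB, HBE1 and HBZ of the blood list and SIX3 of the neural list were at 0 in all 11 libraries. In bulk samples, fewer cells of a type and less RNA per cell cannot be told apart. The part of other cells in the differences was not tested. Collagen and matrix genes (21 tested, 0 called, median -0.15), BMP targets (14, 0, -0.06), WNT and NODAL targets (15, 0, -0.39), DNA replication (26, 0, -0.04) and mitosis (25, 0, -0.11) likewise had no call in limma, with 8, 5, 2, 1 and 1 genes at an unadjusted p under 0.05. Of all genes, 0.408% were called and 10.8% had an unadjusted p under 0.05. Of the 8 collagen and matrix genes at that level, 7 were lower in aRB27 and 1 was higher, against 8.15% and 2.65% of all genes. The summed level of that list was lower in every aRB27 library than in GK15 of the same day.

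The difference was next followed by day. On day 2 limma called 0 genes (276 or 2.89% at an unadjusted p under 0.05) and on day 4 again 0 (337, 3.53%), where GK15 has 1 library each and its spread is assumed to be that of the other groups. On day 6, 5 genes (0.0523%) were called lower and 2 (0.0209%) higher in aRB27, with 962 (10.1%) at an unadjusted p under 0.05. The lower genes were PDZK1 (-2.61 ± 0.28), WWTR1 (-1.69 ± 0.22), TMPRSS2 (-3.01 ± 0.45), FDX1 (-1.97 ± 0.25) and COTL1, an actin-binding protein (-1.65 ± 0.25). Higher were FAM20C, a kinase of secreted proteins, with 48.7, 49.2 and 14.6 RPM in aRB27 and 2.08 and 2.41 RPM in GK15 (3.38 ± 0.5), and QPCT, a glutaminyl cyclase, with 15.7, 11.1 and 11.2 RPM in aRB27 and 1.67 and 0.60 RPM in GK15 (2.71 ± 0.41). The count of day 6 was 65 without aRB27 day 6 library 4. It was 0 without GK15 day 6 library 3, 1 without GK15 day 6 library 1, aRB27 day 6 library 3 or either aRB27 library of day 4, and 3 without aRB27 day 6 library 1 or GK15 day 2 library 1. With edgeR 1, 3 and 6 genes were called on days 2, 4 and 6, and with DESeq2 1, 16 and 83.

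Whether the difference itself changed with day was tested as an interaction, which no gene passed in limma or edgeR and 1 passed in DESeq2 (240 or 2.51% at an unadjusted p under 0.05 in limma). The 6 smallest p-values were those of PIK3R3, FAM20C, PDZK1, PDGFRB, ARL10 and INPP4A, from 0.000334 to 0.00132 unadjusted. PIK3R3, a regulatory subunit of PI3 kinase, was listed at 0 in the day 2 GK15 library and at 18.7 and 11.7 RPM in the aRB27 libraries of that day, and at similar levels in both media on day 6 (7.91 and 14.5 against 10.2, 8.21 and 13.9 RPM). PDGFRB, a receptor of platelet-derived growth factor, went from 22.3 RPM in GK15 on day 2 to 2.08 and 1.81 RPM on day 6, and in aRB27 from 12.3 and 13.2 RPM to 20.3, 11.1 and 14.6 RPM. INPP4A, a phosphoinositide phosphatase, was at 18.6 RPM in GK15 on day 2 and 147 and 157 RPM on day 6, against 29.2 and 31.2 RPM and then 86.8, 83.8 and 66.8 RPM in aRB27. EGR1 had daily differences of -1.11, -1.78 and -1.43. With 0 interaction calls, none of these is shown to differ between days.

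The 39 genes were then read in 6 BTAG positive libraries of days 8 and 10, which had no part in the comparison. There were 1 aRB27 and 2 GK15 libraries on each day, all labelled as the same reporter line. The labels do not say whether they came from other inductions than the libraries of days 2 to 6. They may thus not be independent of those. In the alphabetical order of names none of the 6 would change medium, and both aRB27 libraries would change day. They would be of days 6 and 8, while the GK15 libraries would stay at days 8 and 10. Medium and day would then be mixed in what follows, and their parts could not be told apart. Of the 36 genes called lower on days 2 to 6, 35 (97.2%) were also lower in aRB27 on days 8 and 10, against 48.9% of all genes tested. In 31 of them (86.1%) the aRB27 library was below both GK15 libraries on both days, against 14.9% of all genes, and 28 (77.8%) had a log2 difference past -1, against 3.1%. The median difference of the 36 was -1.67, and that of all genes 0.01. The exception was PCDH19, a protocadherin, at 0.21 ± 0.43. All 3 genes called higher were again higher, 2 of them without overlap (FAM129A at 3 ± 0.54 and ACOT7 at 2.37 ± 0.49).

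On days 8 and 10 PTRF was 42.4 to 66.4 RPM in GK15 and 1.24 and 1.3 RPM in aRB27 (log2 difference -4.56 ± 0.32, limma adjusted p = 0.000412 in a fit of these 6 libraries alone). For PDK4 the levels were 151 to 218 RPM and 39.6 and 63.9 RPM (log2 difference -1.84 ± 0.21, limma adjusted p = 0.00575). EGR1 was 333 to 719 RPM in GK15 and 217 and 123 RPM in aRB27 (log2 difference -1.71 ± 0.32, limma adjusted p = 0.0629). FOS again overlapped, with 39.7 to 817 RPM in GK15 and 68.02 and 17.6 RPM in aRB27. That fit called 41 genes, 37 lower (0.387%) and 4 higher (0.0419%), and 10 of the 41 were among the 39, including PTRF, HAPLN1, RHOB, PDZK1, GREB1, PDK4, CRHBP, C9H10orf10 and MACROD1. The fatty acid oxidation and PPAR list had a median of -0.68 with 12 of 16 under 0, the immediate early list -0.91 with 12 of 17, and the HOX and CDX list -1.48 with 6 of 7. The germ cell list had 12 of 18 under 0 and 0 calls. In the glycolysis and hypoxia list 26 of 27 were under 0 (median -0.49), with 1 called lower. Mitosis had 1 of 25 under 0 (median 0.51) and DNA replication 2 of 26 (median 0.31), with 0 calls each. On days 2 to 6 glycolysis and hypoxia, mitosis and DNA replication had 19, 20 and 16 under 0. Of all genes, 48.9% were under 0 on days 8 and 10 and 63.7% on days 2 to 6.

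**Figure D5:**
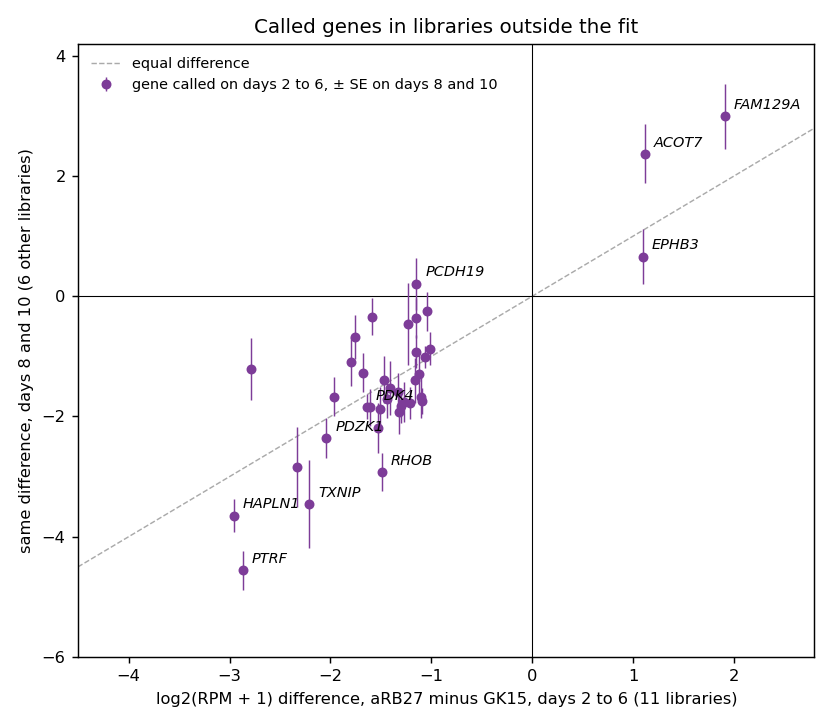
Of the 39 genes called on days 2 to 6, 38 are plotted, by its log2(RPM + 1) difference aRB27 minus GK15 on days 2 to 6 (horizontal axis, 11 libraries) and on days 8 and 10 (vertical axis, 6 other libraries, ± SE). All but PCDH19 keep their sign, with PTRF at -2.87 and -4.56.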

How the data were processed

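Libraries were made from the 3′ ends of transcripts. The values were deposited as RPM: per the file headers and names, the authors scaled the reads of each gene to the total of the library. The submitters' processing notes list Cutadapt 1.3, TopHat 1.4.1 and Cufflinks 2.2.0 with no role given. The sources used here do not name the monkey build, and no coordinates or sequences are printed. The table had 26018 entries, 9295 of them LOC entries. Current symbols came from the RefSeq annotation T2T-MFA8v1.1 by gene ID (36 of the 39 called genes matched). Reads of genes with near-identical copies may be split, and the use of strand is not stated.

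Differences were tested with limma 3.58.1 (R 4.3.3, intensity trend) on log2(RPM + 1) with day as a factor, keeping genes that reached 10 RPM in 2 or more of the 11 libraries, and called at a Benjamini-Hochberg adjusted p under 0.05 with a log2 difference of at least 1. Daily differences and the interaction came from group means. Low values were whole multiples of 1 read in 99.5% to 99.8% of cases (tolerance 0.1 steps), so edgeR 4.0.16 and DESeq2 1.42.0 were run on recovered reads as alternatives and called 44 and 103 genes. The precision of low levels is that of a few reads. Libraries are numbered in the order of the labels, which give no replicate numbers, and 0 pairs of the 11 had identical values.

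The genes named are SOX2, POU5F1, NANOG, SOX17, PRDM1, TFAP2C and NANOS3, the 10 largest changes in each direction past the threshold without overlap on any day and without LOC entries, up to 4 called members of each list described with other members given as values, and the 6 smallest interaction p-values. A few genes are not reported here, and list counts include them. The 34 lists hold 743 genes, of which 687 are in the table and 470 were tested. The libraries, lists and tests were chosen with earlier results of these data known. The scripts were tested on simulated data. Alternatives covered the pseudocount, filter, scaling, tool, threshold, set of libraries and the omission of each library. The 6 libraries of days 8 and 10 alone, the libraries whose line or name depends on the reading of the names, and a spread shared with libraries whose PRDM1 level fits the gate were added after seeing the data.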

Additional observations from a re-analysis of the deposited data

How the results depend on the processing

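Over days 2 to 6, 39 genes were called (3 higher, 36 lower in aRB27). Pseudocounts of 0.1 and 10 gave 26 each, a robust prior 39, edgeR 44, quantile normalization 32 and the adjusted p alone 48. The count was 8 without a filter, 23 with a mean of at least 20 RPM, 25 with median-of-ratios scaling, 103 with DESeq2, 7 at a log2 difference of at least 2 and 160 with days 8 and 10 added. It was 2 with every BTAG library as labelled, 0 with the spread shared with all other reporter-line libraries, 0 in the MS162 libraries alone, 0 without the 2 libraries of doubtful line and 1 in the day 6 libraries alone. Leaving out 1 library at a time gave 0 to 63. With the spread shared only with libraries whose PRDM1 level fits the gate it was 30, and the 6 libraries with the same name in both readings, of which 1 is from GK15 and is set against 1 aRB27 library of day 6, gave 35, of which 1 was among the 39. The days 8 and 10 libraries alone gave 41, and 44 without a day term. Median-of-ratios and quantile scaling moved the median of all genes from -0.079 to -0.005 and 0.009. The cause of these shifts was not tested.

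The labels give no replicate numbers, but the title numbers run in series. With the series as a replicate block 1 gene was called, and with the 4 same-series pairs of libraries as a replicate block 0 were. The title numbers are part of the names, so the series and pairs depend on the reading of the names. Neither the labels nor the data settle whether a series pairs libraries: GK15 has 2 libraries of day 6, whose deviations from their mean mirror each other, so that their correlations (0.29 and -0.27 within a series) cannot show pairing.

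By day, the counts of 0, 0 and 7 on days 2, 4 and 6 and of 0 for the interaction became 68, 57, 11 and 562 without a filter, and 1, 16, 83 and 1 with DESeq2. edgeR gave 1 on day 2 and 3 on day 4. A pseudocount of 0.1 gave 1 on day 2, and one of 10 gave 4 on day 4 and 25 on day 6. On day 6 the count was 3 with a mean of at least 20 RPM, 13 with a robust prior, 4 at a log2 difference of at least 2, 2 as labelled, and 0 both with the spread shared with all other libraries and without the 2 libraries of doubtful line. The spread shared with libraries that fit the gate gave 2, 2 and 14. Leaving out 1 library gave 0 to 4 on day 2, 0 to 5 on day 4, 0 to 65 on day 6 and 0 throughout for the interaction. Without GK15 day 2 library 1 or GK15 day 4 library 1, the difference of that day and the interaction could not be estimated.

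Among the called genes, in all settings other than the omission of single libraries, 369 values kept direction and call, 504 kept direction alone and 11 reversed. In the omissions 221 kept both and 208 kept direction alone. With the BTAG libraries as labelled, MGLL (0.94), LOC107128503 (0.5), SLC16A7 (0.58), LOC102146106 (1.02), HES6 (0.54), CRHBP (2.05), ADAMTS19 (0.32), C9H10orf10 (0.7) and C2H3orf52 (0.3) turned to higher in aRB27, and PCDH19 was 0.21 on days 8 and 10 with or without a day term. The setting as labelled includes GK15 libraries with PRDM1 at 4.90, 0 and 0.50 RPM, which goes against their gate. Its values may therefore set double-positive cells against other cells. Depth limits genes near 1 RPM, such as PTRF in aRB27, to a few reads.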

Other observations

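The fit of the 6 libraries of days 8 and 10 called 31 genes that were not called on days 2 to 6, and some of them are given here as values, chosen after their values were seen. The days of the 2 aRB27 libraries depend on the reading of the names, so medium and day may be mixed in these values. EGF, the epidermal growth factor gene itself, was at 16.02 to 42.9 RPM in the 4 GK15 libraries of days 8 and 10 and at 1.65 and 3.26 RPM in the 2 aRB27 libraries (log2 difference -3.08 ± 0.35, limma adjusted p = 0.00575). On days 2 to 6 its difference was -0.6 ± 0.5 with overlapping libraries. COL1A2, a chain of type I collagen, was at 24.9 to 33.2 RPM and at 3.3 and 0.65 RPM (log2 difference -3.47 ± 0.41, limma adjusted p = 0.00644). Both genes were thus low in both aRB27 libraries and clear of them in all 4 GK15 libraries.

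TFRC, the transferrin receptor that brings iron into cells, was at 141 to 206 RPM in GK15 and at 75.02 and 58.7 RPM in aRB27 on days 8 and 10 (log2 difference -1.42 ± 0.22, limma adjusted p = 0.0267). Its difference on days 2 to 6 was -1.21 ± 0.31, which did not pass the test (limma adjusted p = 0.111). EVX1, a homeobox factor of the posterior embryo, was at 83.05 to 108 RPM and at 35.9 and 18.3 RPM (log2 difference -1.91 ± 0.25, limma adjusted p = 0.00953), and on days 2 to 6 its difference was -1.88 ± 0.61 (limma adjusted p = 0.229). REST, a repressor of neuronal genes, was 1 of the 4 genes called higher, at 580 and 568 RPM in aRB27 and 215 to 303 RPM in GK15 (log2 difference 1.16 ± 0.19, limma adjusted p = 0.0341). Whether any of these differences changed between the earlier and later days was not tested.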
